A study of Danio rerio with 6 samples.

Results

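The 307 long non-coding RNAs (lncRNAs) described here are the assembled transcripts of zebrafish ZF4 cells that had a mean of at least 1 FPKM after cold acclimation and at least a 3-fold higher level than in control cells, and that were still detected in the control cells. ZF4 is a fibroblast-like line that was established from embryos. The study sequenced 3 cultures grown at 18°C, for 30 days by the labels, called cold acclimated cells, and 3 cultures grown at 28°C, called control cells. Both groups are the same unmodified line in the same medium, so temperature and time at that temperature are what the labels give as different. The lncRNAs were chosen from the deposited table of 8363 assembled lncRNAs by 4 values: a control mean above 0, a cold acclimated mean of at least 1 FPKM, an average of both means of at most 10 FPKM, and a ratio of at least 3 after 0.1 FPKM was added to both means. They made up 3.67% of the table and lay at 298 loci. Of the 2947 lncRNAs that met the conditions on level alone, 10.4% were chosen, and since the ratio itself was the criterion nothing is read from these shares. FPKM is the number of sequenced fragments of a transcript, divided by its length and by the size of the library.

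The table gives 1 mean per group and no value of a single culture. The spread between the 3 cultures of a group cannot be computed from these means, so the differences in FPKM given here come without an error or a test. The per-transcript test results that the authors deposited beside the means, and the qRT-PCR measurements, were not used here. The table holds assembled lncRNAs only, so marker genes of fibroblasts are not measured in it. Fewer cells of a kind and less RNA per cell cannot be told apart in such bulk samples. On the log2 scale, the ratio between cold acclimated and control cells had a median of -0.61 over the whole table, so most assembled lncRNAs had the lower mean in the cold. The chosen lncRNAs had a median log2 ratio of 2.32, which is 2.93 above that of the table.

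Long non-coding RNAs are transcripts that carry no long reading frame and are spliced, capped or polyadenylated in many cases like mRNAs. Some act on genes near their own place of transcription, some act elsewhere in the cell, and for most no function is known. Fish cells kept in the cold for weeks are known to adjust membrane lipids, energy metabolism, cell contacts and the cell cycle. The gene given for a lncRNA is the one that the authors deposited as its nearest gene. A lncRNA said to be at a gene, or carried by it, bears that label and need not overlap the gene. Transcripts of 1 locus can bear different labels. Roles given below for named genes are those known for the vertebrate gene of that name, mostly from human and mouse. They refer to the gene and not to the lncRNA.

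Only 1 of the 307 lncRNAs has primers among the study's qRT-PCR assays, of 8 lncRNAs of the table that do. It is MSTRG.26470.1, a transcript of 895 nt with 1 exon at chr6:37037579-37038473 (GRCz10), placed at negr1. This gene encodes a cell adhesion molecule of the immunoglobulin superfamily that is attached to the surface of neurons. The primer sequences are shown because they state exactly which stretch of RNA the lncRNA assay and the assay of the gene itself detect; both are written 5′ to 3′ as the study lists them.
MSTRG.26470.1 forward: ggtctccagaaatgtagacagg
MSTRG.26470.1 reverse: ggccattgcttagtgagataga
negr1 forward: cctgttggatgggatctcaaa
negr1 reverse: gatacaatggacacacgaggat
MSTRG.26470.1 had 3.13 FPKM in cold acclimated cells and 0.512 FPKM in control cells, a log2 ratio of 2.40. A separate chosen lncRNA at the same gene, MSTRG.26471.1 at chr6:37140570-37141229, had 8.83 FPKM in cold acclimated cells and 1.83 FPKM in control cells. A lncRNA at negr1 that was not chosen, MSTRG.26469.1, went the other way, with 0.325 FPKM in cold acclimated cells and 0.639 FPKM in control cells. The 3 lncRNAs named at this gene thus did not share a direction.

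The levels of the chosen lncRNAs were bounded by the rule. Their cold acclimated mean had a median of 2.11 FPKM (quartiles 1.40 and 3.83) and reached from 1.00 to 17.2 FPKM, beside a median of 0.699 FPKM for the remaining transcripts. Their control mean had a median of 0.331 FPKM (quartiles 0.172 and 0.688) and reached from 0.000986 to 4.47 FPKM, beside 1.14 FPKM for the remaining transcripts. In cold acclimated cells 147 of them lay below 2 FPKM and 10 at or above 10 FPKM. In control cells 36 lay below 0.1 FPKM, 4 of these below 0.01 FPKM. The ratio, with 0.1 FPKM added, had a median of 5.01, with 108 lncRNAs between 3 and 4, 143 between 4 and 8, 46 between 8 and 16, and 10 above that. Together they took 3.05% of all FPKM listed for cold acclimated cells and 0.632% of all FPKM listed for control cells.

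**Figure D1:**
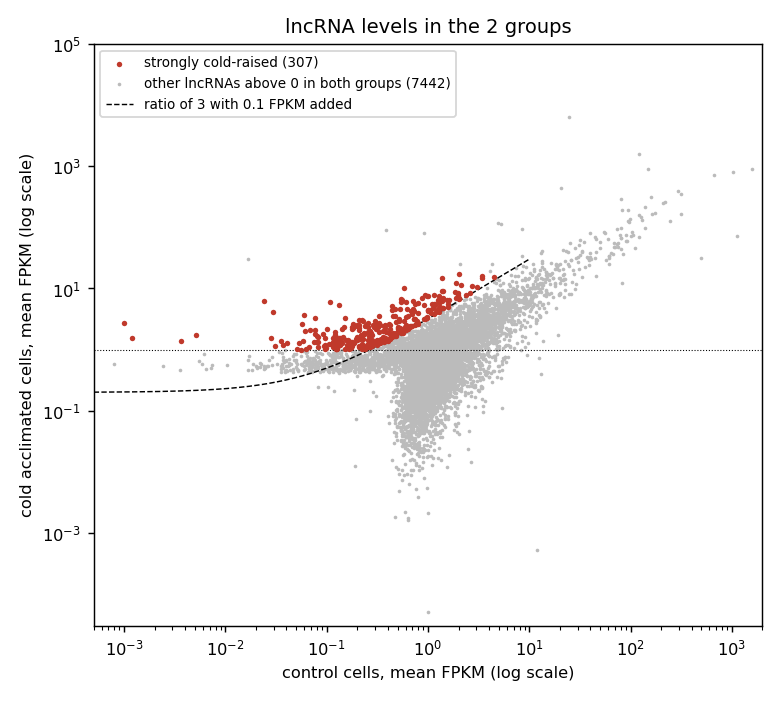
Mean FPKM of each assembled lncRNA in cold acclimated cells (vertical axis, log scale) against control cells (horizontal axis, log scale), for transcripts above 0 in both groups. The 307 strongly cold-raised lncRNAs are red, the other 7442 grey, the dashed line is a ratio of 3 with 0.1 FPKM added and the dotted line a cold acclimated mean of 1 FPKM; the red points end at 17.2 FPKM in the cold because the average of both means was limited to 10 FPKM.

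The thresholds cut through a continuous range of values. MSTRG.4454.3 was just inside the limit on the cold acclimated mean with 1.002 FPKM, and MSTRG.13771.1 was just outside with 0.9997 FPKM. For the ratio, MSTRG.20058.1 was inside at 3.01 and MSTRG.17287.1 outside at 2.997. For the average of both means, MSTRG.18739.4 was inside at 9.90 FPKM and MSTRG.30096.1 outside at 11.6 FPKM. A further 49 lncRNAs met every condition but were listed at 0 in control cells, 213 failed only the cold level and 16 failed only the limit on the average.

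The lncRNA with the highest ratio was MSTRG.20950.4, a transcript of 3 exons at rab11fip4a (chr3:35829444-35995001), which encodes an effector of the small GTPase Rab11 in recycling endosomes. It had 6.29 FPKM in cold acclimated cells and 0.0239 FPKM in control cells (log2 ratio 5.69). The other listed transcript of that locus had 3.40 FPKM in cold acclimated cells and 1.50 FPKM in control cells, so both were higher in the cold by very different amounts. MSTRG.27261.2 followed, a transcript of 217 nt at si:dkey-23a13.11, with 4.11 FPKM in cold acclimated cells and 0.0297 FPKM in control cells. MSTRG.29550.1 lies at gfra2a, which encodes a receptor of the GDNF family, and had 6.04 FPKM in cold acclimated cells and 0.108 FPKM in control cells.

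MSTRG.3207.1 was unlike these in its structure, with a single exon of 1613 nt at per3 (chr11:39713621-39715233), a period gene of the circadian clock. It had 3.67 FPKM in cold acclimated cells and 0.0596 FPKM in control cells (log2 ratio 4.56), and no other transcript was listed at its locus. MSTRG.4769.2 at metap1, which encodes an enzyme that removes the first methionine of new proteins, had 5.41 FPKM in cold acclimated cells and 0.133 FPKM in control cells. The remaining lncRNAs among the 10 with the highest ratios were MSTRG.6172.4, MSTRG.21608.1, MSTRG.15612.1 at mark2a, MSTRG.30328.1 and MSTRG.12545.1 at ak5. Their levels were between 1.53 and 3.29 FPKM in cold acclimated cells and between 0.000986 and 0.0769 FPKM in control cells. For control means this near 0, the size of the ratio is set largely by the 0.1 FPKM added.

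**Figure D2:**
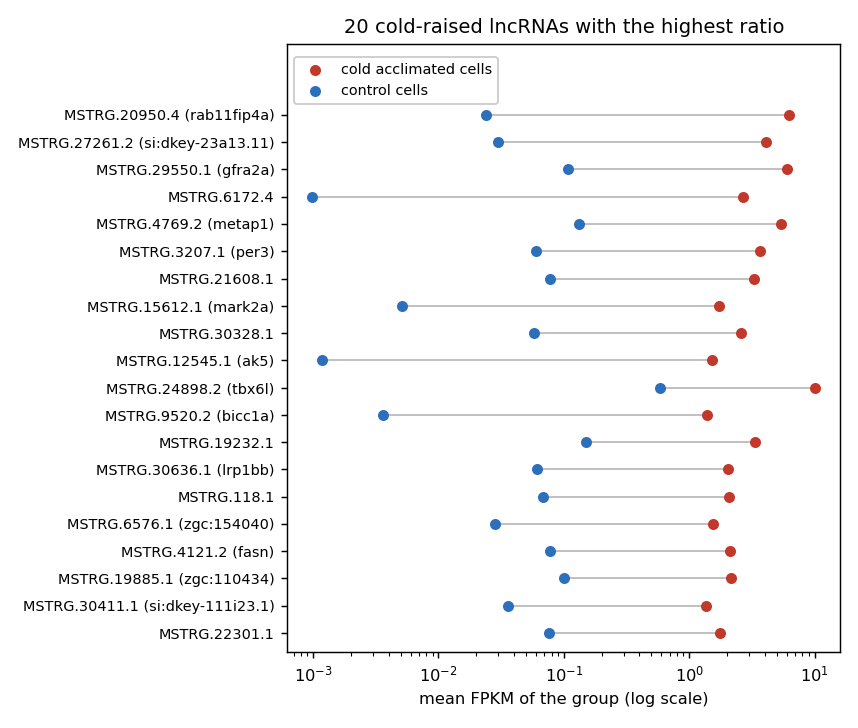
The 20 strongly cold-raised lncRNAs with the highest ratio, with the mean FPKM of cold acclimated cells in red and of control cells in blue on a log axis; each pair is joined by a line and no error can be drawn because single cultures are not listed. The red points lie between 1.37 and 10.1 FPKM, while the blue points reach from 0.000986 to 0.585 FPKM.

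Ranked by level in the cold instead, MSTRG.21956.1 was first, a transcript of 2 exons and 480 nt at chr4:16045055-16072515 with no gene named. It had 17.2 FPKM in cold acclimated cells and 2.01 FPKM in control cells. MSTRG.30077.6 at itgav, the integrin alpha V subunit, had 16.2 FPKM in cold acclimated cells and 3.40 FPKM in control cells. MSTRG.3939.1 at nrxn1a, a neurexin of the presynaptic membrane, had 11.3 FPKM in cold acclimated cells and 2.099 FPKM in control cells. Of the 10 lncRNAs highest in the cold, 5 had no gene named, among them MSTRG.12334.1 with 14.7 FPKM in cold acclimated cells and 3.38 FPKM in control cells.

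Most of the chosen lncRNAs had a single exon. Their share lay between that of the rest of the table and that of lncRNAs below 3-fold that met the same conditions on level. A single exon was listed for 189 of them, which is 61.6% (95% interval 56.0% to 66.8%, Wilson), against 70.5% of the remaining 8056 transcripts. With 3 or more exons there were 49 (16.0%), against 10.3% of the remaining transcripts. The set compared with mattered: among the 2640 lncRNAs in the same level window with a ratio below 3, only 52.7% had a single exon and 20.2% had 3 or more. The 1028 lncRNAs that were at least 3-fold lower in the cold by the mirrored rule, 12.3% of the table, had a single exon in 69.6% and 3 or more exons in 7.39%. Without transcripts that overlap another listed one, the single-exon shares were higher and their order alike, with 74.9% of the chosen lncRNAs, 81.7% of the remaining transcripts and 64.5% of the level window below 3-fold. Intervals given for shares and medians cover counting error over transcripts only, and since transcripts are not replicates no test was made on these differences. The transcript with the most exons was MSTRG.11547.2, with 10 exons and 1420 nt, which had 2.15 FPKM in cold acclimated cells and 0.510 FPKM in control cells. MSTRG.5925.4 and MSTRG.5925.5, at 1 locus on chromosome 14, had 9 exons each.

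The chosen lncRNAs were shorter than those below 3-fold in the same level window. In median length they were close to the table as a whole, but fewer of them were long. The window sets limits and does not match levels. The average of both means had a median of 1.22 FPKM for the chosen lncRNAs and 1.81 FPKM for those below 3-fold. Their median length was 482 nt (95% interval 434 to 545 nt), against 533 nt for the remaining transcripts, which lies within that interval, 794.5 nt (757 to 837 nt) for the same level window below 3-fold, and 686 nt for the cold-lowered set. With 1 exon the median was 472 nt, against 703.5 nt in the level window and 456 nt in the remaining transcripts. With 2 exons it was 434 nt, against 903 nt in the level window and 750 nt in the remaining transcripts. With 3 or more exons it was 713 nt (539 to 1085 nt), an interval that includes both the 839.5 nt of the level window and the 798 nt of the remaining transcripts. Only 18.9% were longer than 1000 nt, against 40.5% of the level window below 3-fold and 27.9% of the remaining transcripts. Read the other way, the chosen lncRNAs were 17.2% of all transcripts of 200 to 299 nt in the level window, 15.8% of those of 300 to 499 nt, 10.6% of those of 500 to 999 nt and 5.15% of those of 1000 nt or more. Over the whole table the same classes gave 3.55%, 4.51%, 4.27% and 2.51%, so the steady fall with length was seen within the level window and not over all transcripts. Short transcripts rest on fewer fragments at the same FPKM, and how far that enters these shares was not tested. The shortest was MSTRG.15981.1 with 201 nt in 2 exons, and the longest MSTRG.349.1 with 5106 nt in 1 exon, at 5.86 FPKM in cold acclimated cells and 1.27 FPKM in control cells. From first to last base on the genome, the transcripts of 2 exons had a median span of 7359 bases (2738 to 9311 bases), an interval that includes the 4496 bases of the remaining transcripts of 2 exons.

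The cumulative curve of their lengths had a step near 550 nt, and the length band from 540 to 579 nt was chosen after this step was seen. In this band lay 32 of the 307 lncRNAs, 10.4% (95% interval 7.48% to 14.3%, Wilson), against 2.57% of the remaining transcripts, 2.69% of the level window below 3-fold and 3.11% of the cold-lowered set. Of the 32, 28 had a single exon. Among single-exon transcripts in the level window, the chosen lncRNAs were 28 of 66 in the band (42.4%, 31.2% to 54.4%) and 161 of 1515 at other lengths (10.6%, 9.17% to 12.3%). In classes of 20 nt between 200 and 999 nt, they were 33.9% of the level window at 540 to 559 nt and 27.7% at 560 to 579 nt, and at most 21.6% in each of the other 38 classes. With a cold mean of at least 2 FPKM the rule took 17 of 25 single-exon transcripts of the band and 75 of 450 at other lengths, and with a ratio of at least 4 it took 20 of 66 and 110 of 1515. The gap was narrower with a ratio of at least 2, where it took 30 of 66 (45.5%) and 288 of 1515 (19.0%), and with a cold mean of at least 0.5 FPKM, where it took 29 of 106 (27.4%) and 316 of 3111 (10.2%). These settings shift the cutoffs of the rule over largely the same transcripts from which the band was picked. They are therefore no separate support for the band. The band as a whole was not higher in the cold: its 179 single-exon transcripts had a median log2 ratio of -0.63, and of the 151 that were not chosen 32 had the higher mean in the cold.

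The 28 single-exon lncRNAs of this band were spread over 18 chromosomes, with at most 3 on any of them, and 2 overlapped another listed transcript. Their means were between 1.11 and 12.5 FPKM in cold acclimated cells (median 2.54) and between 0.0809 and 3.04 FPKM in control cells (median 0.480). A gene was named at 9 of them, and those named next were chosen after their values were seen. MSTRG.30929.1 at rad50, a subunit of the complex that binds DNA double-strand breaks, had 8.55 FPKM in cold acclimated cells and 2.61 FPKM in control cells. MSTRG.9965.1 at ttbk2a, a tau tubulin kinase, had 5.65 FPKM in cold acclimated cells and 1.10 FPKM in control cells. MSTRG.12644.1, the highest of the band in the cold, had no gene named, with 12.5 FPKM in cold acclimated cells and 1.88 FPKM in control cells. Whether the sequences of these transcripts are related was not analysed here.

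**Figure D3:**
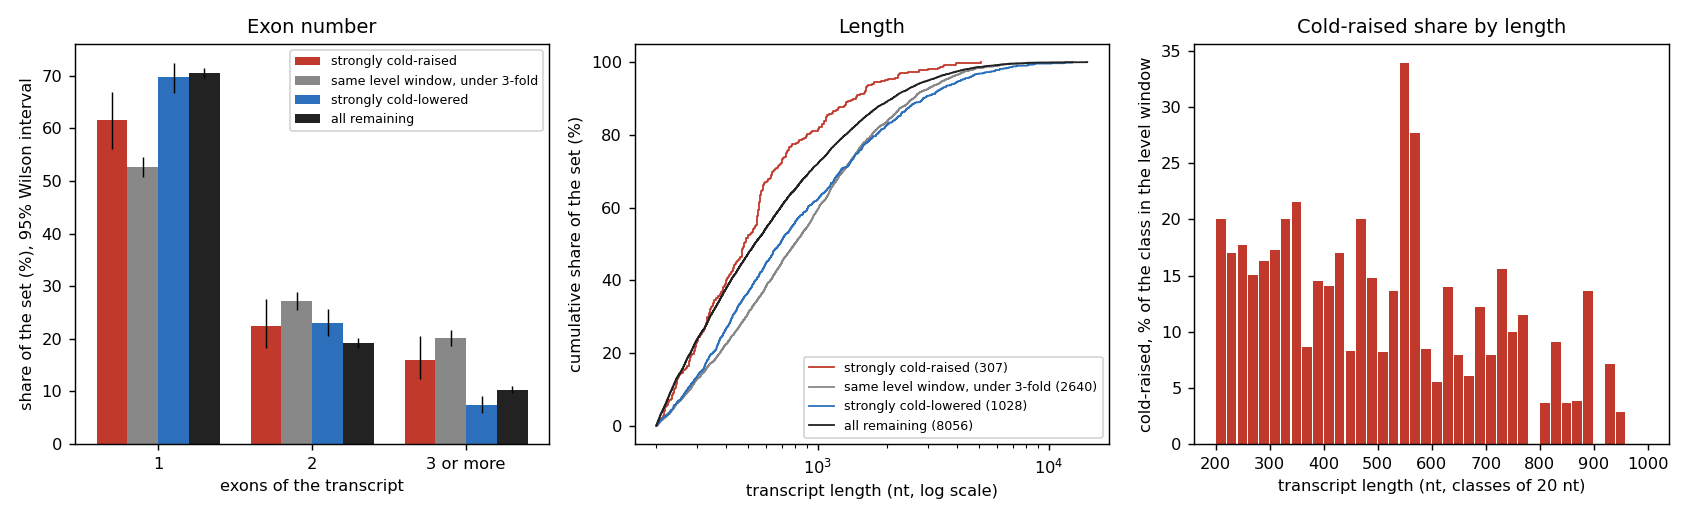
Exon number (left, share of each set with 95% Wilson intervals), cumulative length (middle, log axis) and the cold-raised share of the level window in length classes of 20 nt (right). The 307 strongly cold-raised lncRNAs (red) are compared with the level window under 3-fold (grey), the strongly cold-lowered set (blue) and all remaining transcripts (black); the red length curve lies left of the grey and blue ones, and the classes at 540 to 579 nt stand at 33.9% and 27.7%.

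A gene was named at 127 of the 307 lncRNAs, 41.4% (36.0% to 47.0%, Wilson), against 38.2% of the remaining transcripts and 40.0% of the level window below 3-fold. The table does not mark strand or whether the lncRNA lies in an exon or an intron. The share was higher with 2 or more exons (56.8%) than with 1 exon (31.7%), as it was among the remaining transcripts (51.1% and 32.8%). The 127 lie at 122 genes. Of the 122 names, 99 were found in RefSeq's current zebrafish gene table, all 99 as protein-coding, and 94 on the same chromosome as in the table used here. The names rad50, COL18A1 and PRKCA were among the 5 placed on another chromosome, so what is said of these genes rests on the name in the deposited table. At 52 of the 122 genes the table lists other lncRNAs, 136 in all. Of these 136, 54 (39.7%) had the higher mean in the cold, 13 by at least 3-fold, and 27 were at least 3-fold lower, while 30.7% of all 8056 remaining transcripts had the higher mean in the cold. Some of the 136 overlap a chosen lncRNA at its locus, and the sets were not matched in exon number. Among the remaining transcripts the median log2 ratio was -0.82 with 1 exon and 0.04 with 3 or more. No difference is therefore read from these shares.

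The gene groups that follow are lists of symbols matched by their letters, and they do not hold every gene of a kind. Genes of cell adhesion and axon guidance carried 11 of the chosen lncRNAs, at 10 genes, of 145 lncRNAs listed at such genes (7.59%, 4.29% to 13.1%). At the same group of genes 28 lncRNAs (19.3%) were in the cold-lowered set, and the median log2 ratio of all 145 was -0.95. Over all 3204 lncRNAs at named genes these values were 10.6% and -0.55, and every list had a negative median. Besides itgav, nrxn1a and negr1, the group held the following, named after their values were seen. MSTRG.3568.1 at pcdh15b had 2.52 FPKM in cold acclimated cells and 0.283 FPKM in control cells, and MSTRG.5300.1 at its paralogue pcdh15a had 1.81 FPKM in cold acclimated cells and 0.231 FPKM in control cells. MSTRG.5331.1 at cdh23 had 1.88 FPKM in cold acclimated cells and 0.452 FPKM in control cells. Protocadherin 15 and cadherin 23 form the tip links of sensory hair cells in the ear. The others lay at cdh4, tenm3, epha8 and fat3a, with between 1.06 and 1.50 FPKM in cold acclimated cells and between 0.0994 and 0.356 FPKM in control cells. Of the 6 lncRNAs listed at tenm3, only the chosen MSTRG.729.1 had the higher mean in the cold, and 3 were in the cold-lowered set. At pcdh15a the 3 transcripts of the locus summed to 6.14 FPKM in cold acclimated cells and 7.07 FPKM in control cells, and at fat3a the 4 transcripts summed to 4.09 FPKM in cold acclimated cells and 3.70 FPKM in control cells.

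Genes of the extracellular matrix list, which also takes in secreted proteases and serpins, carried 4 of 45 listed lncRNAs (8.89%, 3.51% to 20.7%), with 3 (6.67%) in the cold-lowered set. The median log2 ratio of all 45 was -0.95, against -0.55 over all lncRNAs at named genes. MSTRG.28287.1 at ADAMTS7, a secreted metalloprotease that cuts matrix proteins, had 3.52 FPKM in cold acclimated cells and 0.456 FPKM in control cells. The other 3 lay at serpine3, COL18A1 and adamts13, with between 1.81 and 2.54 FPKM in cold acclimated cells and between 0.208 and 0.574 FPKM in control cells. Ion channels and neurotransmitter receptors carried 6 of 112 (5.36%), with 19 (17.0%) in the cold-lowered set and a median log2 ratio of -0.97. MSTRG.3057.1 at cacna1ab had 6.87 FPKM in cold acclimated cells and 1.87 FPKM in control cells, and MSTRG.20846.1 at cacna1aa had 2.67 FPKM in cold acclimated cells and 0.181 FPKM in control cells. Both genes encode the pore-forming subunit of a P/Q-type calcium channel. MSTRG.7655.1 at grm5b, a metabotropic glutamate receptor, had 2.22 FPKM in cold acclimated cells and 0.182 FPKM in control cells.

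Transcription factor genes of the list carried 7 of 164 (4.27%), with 21 (12.8%) in the cold-lowered set and a median log2 ratio of -0.78. Transcription factor genes that the list does not hold include batf and carf, which each carry a chosen lncRNA. The one at carf, MSTRG.30124.1, had 7.12 FPKM in cold acclimated cells and 0.879 FPKM in control cells. Within the list, the highest in the cold was MSTRG.24898.2 at tbx6l, a T-box factor of the mesoderm, with 10.1 FPKM in cold acclimated cells and 0.585 FPKM in control cells. MSTRG.11706.14 at hoxa3a, a Hox gene of the body axis, had 4.93 FPKM in cold acclimated cells and 1.31 FPKM in control cells. Circadian clock genes carried 2 of the 9 lncRNAs listed at them, whose median log2 ratio was -0.01. These were the one at per3 and MSTRG.8219.1 at rorc, a nuclear receptor gene, which is also counted among the transcription factors. MSTRG.8219.1 had 1.28 FPKM in cold acclimated cells and 0.329 FPKM in control cells. Also at rorc, MSTRG.8218.1 was higher in the cold (0.694 against 0.215 FPKM) and MSTRG.8220.1 was lower (0.0346 against 0.704 FPKM). Membrane lipid and fatty acid genes carried 2 of 18 (11.1%), both at fasn, the fatty acid synthase gene, where they overlap each other at 1 locus. Of the 18, 3 (16.7%) were in the cold-lowered set, and their median log2 ratio was -0.64. This list does not hold the lipase genes pnpla3 and PNPLA2, which each carry a chosen lncRNA. MSTRG.4121.1 had 5.41 FPKM in cold acclimated cells and 0.915 FPKM in control cells, and MSTRG.4121.2 had 2.11 FPKM in cold acclimated cells and 0.0772 FPKM in control cells.

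The remaining lists were at or below the 3.96% found for all 3204 lncRNAs at named genes. Kinase and small GTPase genes of the list carried 5 of 134 (3.73%) and transporters 3 of 101 (2.97%). Genes that the kinase list does not hold include mark2a, HIPK1, ripk3, rps6kb1a, pimr59 and mylka, which are named like kinase genes and also carry a chosen lncRNA. The transporter list does not hold tcirg1a, the gene of a proton pump subunit, which carries one too. These shares are therefore those of the lists and not of all such genes. Cytoskeleton and muscle genes carried 1 of 54, MSTRG.29942.1 at mylka, the myosin light chain kinase gene, with 5.11 FPKM in cold acclimated cells and 0.442 FPKM in control cells. Signal ligands and pathways of development carried 1 of 75, at gfra2a, and genes of RNA binding and splicing 1 of 35, at ddx54. None of the 21 lncRNAs at the listed symbols of stress, p53 and the cell cycle was chosen, a share whose upper 95% limit is 15.5%. That list does not hold rad50, dclre1c, oxr1a and ripk3, which each carry a chosen lncRNA. Genes listed under a clone name carried 27 of 691 (3.91%), and RefSeq now gives some of these genes another symbol. For 180 of the 307 no gene was named at all. With so few lncRNAs per group, most of the 95% intervals include the share over all named genes. Those of cell adhesion and axon guidance and of the circadian clock (6.32% to 54.7%) lie above it. These intervals count each transcript as separate, although 4 of the 11 at adhesion genes overlap another listed transcript, and the clock group rests on 2 of 9. The lists were made with earlier results known, so no group is singled out by its interval. The groups were not tested against the share over all named genes.

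At loci with several listed transcripts, the value of a single transcript and the sum of the locus did not always agree. Of the 307 lncRNAs, 44 (14.3%) lay at 35 such loci, against 10.5% of the remaining transcripts and 15.5% of the level window below 3-fold. Locus sums given here cover the listed lncRNAs only, and any other assembled transcripts of a locus are left out. The summed FPKM of the locus was at least 3-fold higher in the cold at 9 of the 35 loci. It was higher by any amount at 26 and lower at 9. The median log2 ratio of the locus sums was 0.64, with a lowest of -1.49 and a highest of 3.61. Of the 73 other transcripts at these loci, 32 had the higher mean in the cold and 41 the lower, 17 of them by at least 3-fold. How the fragments were divided among overlapping transcripts was not tested.

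**Figure D4:**
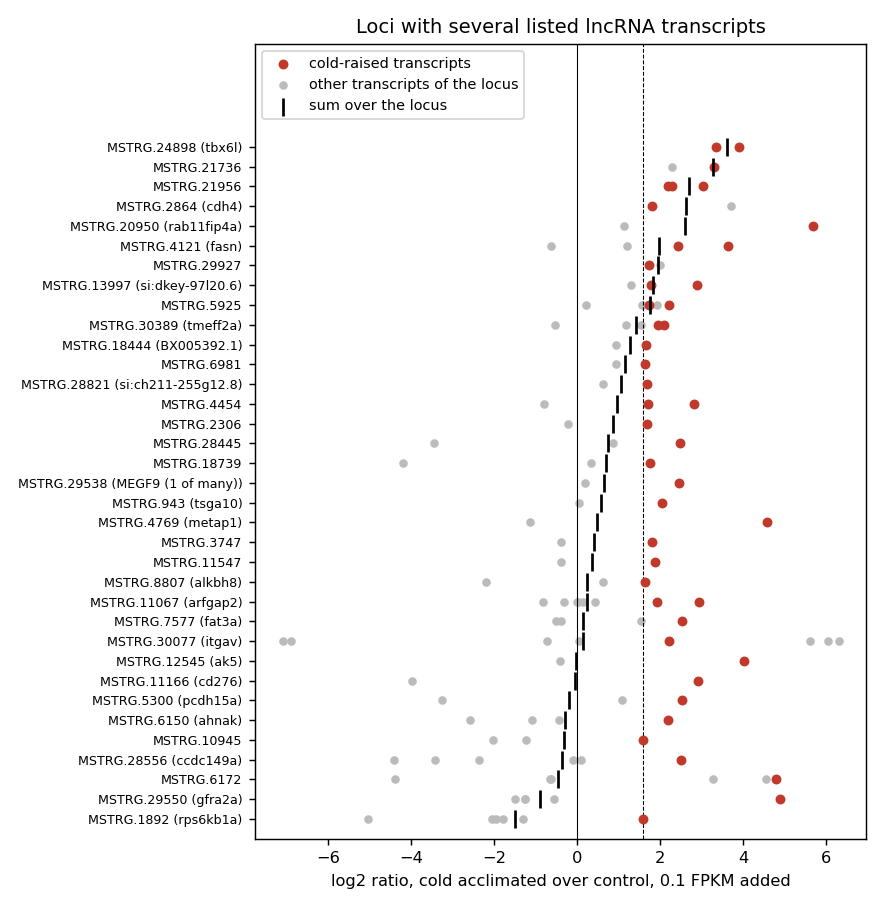
Log2 ratio (cold acclimated over control) with 0.1 FPKM added, at the 35 loci that hold a strongly cold-raised lncRNA and at least 1 other listed transcript, ordered by the ratio of the locus sum. Red points are cold-raised transcripts, grey points the other transcripts and black ticks the sum over the locus, with the dashed line at a ratio of 3; the sums reach from -1.49 to 3.61 although each red point lies right of the dashed line.

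At 9 loci the sum was itself at least 3-fold higher. At MSTRG.21956 on chromosome 4 all 3 listed transcripts were chosen, and their sum was 29.3 FPKM in cold acclimated cells and 4.44 FPKM in control cells. At MSTRG.24898 on chromosome 5, MSTRG.24898.2 at tbx6l and MSTRG.24898.4 at pimr59, named like a Pim-related kinase, had 8 and 6 exons and summed to 24.9 FPKM in cold acclimated cells and 1.94 FPKM in control cells. Of the 4 transcripts at fasn 3 were higher in the cold, and the 4 summed to 9.60 FPKM in cold acclimated cells and 2.36 FPKM in control cells. The locus at tmeff2a, which encodes a transmembrane protein with EGF-like and follistatin-like domains, was not among these 9. There 2 of 5 transcripts were chosen and 1 was lower in the cold. The sum was 20.9 FPKM in cold acclimated cells and 7.83 FPKM in control cells, a ratio of 2.65.

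At other loci the transcripts were divided, and the sum was lower in the cold or only a little higher. At itgav the 8 listed transcripts had 3 exons each and lengths from 1316 to 1391 nt, and their sum of 43.9 FPKM in cold acclimated cells was close to the 40.1 FPKM in control cells. There MSTRG.30077.5 was listed at 0 in cold acclimated cells and had 13.5 FPKM in control cells, while MSTRG.30077.9 had 7.80 FPKM in cold acclimated cells and was listed at 0 in control cells. At gfra2a the 5 transcripts of MSTRG.29550 summed to 99.8 FPKM in cold acclimated cells and 187 FPKM in control cells. Together with those of MSTRG.29549, the 10 transcripts summed to 281 FPKM in cold acclimated cells and 348 FPKM in control cells. Of these 10, 8 were lower in the cold, while MSTRG.29549.5 had 101 FPKM in cold acclimated cells and was listed at 0 in control cells. MSTRG.29550.1 has the same length of 535 nt as MSTRG.29550.2, which had 48.0 FPKM in cold acclimated cells and 70.3 FPKM in control cells. At ak5 the sum was 6.49 FPKM in cold acclimated cells and 6.64 FPKM in control cells, and at MSTRG.6172, where MSTRG.6172.4 has the lowest control mean of all, 37.3 FPKM in cold acclimated cells and 51.6 FPKM in control cells. Of the highest ratios, 4 (at gfra2a, MSTRG.6172, metap1 and ak5) thus belonged to loci whose sum was lower in the cold or at most 1.40-fold higher. Of all 307 lncRNAs, 243 overlapped no other listed transcript; overlap with mRNAs and known lncRNAs was not analysed here.

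The chosen lncRNAs were found on each of the 25 chromosomes. Their share of the listed lncRNAs was highest on chromosome 9 with 5.69% (19 of 334) and chromosome 4 with 5.57% (32 of 574), and lowest on chromosome 23 with 0.847% (2 of 236). The 2 on chromosome 23 were MSTRG.17569.1, with 4.34 FPKM in cold acclimated cells and 0.991 FPKM in control cells, and MSTRG.17546.1, with 2.44 FPKM in cold acclimated cells and 0.372 FPKM in control cells. On chromosome 9 the highest in the cold after the one at itgav was MSTRG.30648.1, with 9.18 FPKM in cold acclimated cells and 1.42 FPKM in control cells. Unplaced scaffolds held 8 of the 307 (2.61%, 1.33% to 5.06%), against 5.72% of the remaining transcripts.

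**Figure D5:**
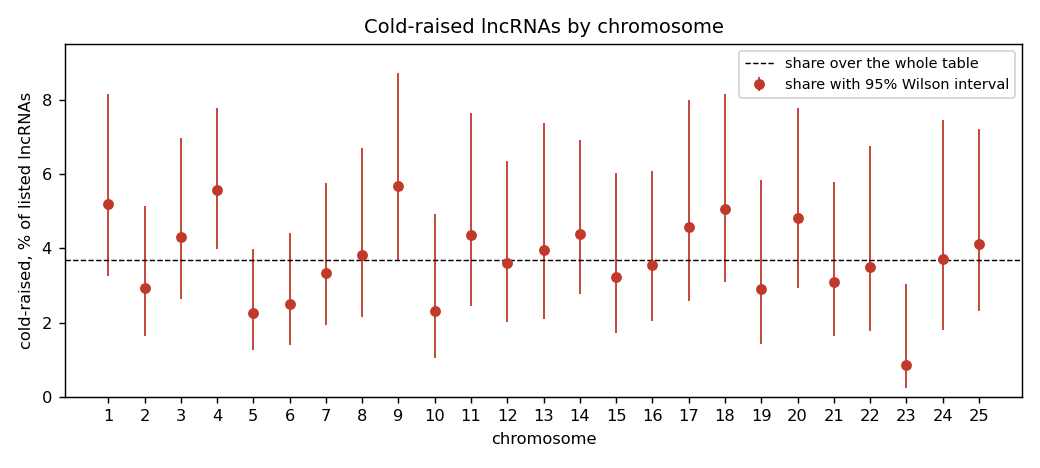
Strongly cold-raised lncRNAs as a share of all listed lncRNAs on each of the 25 chromosomes, with 95% Wilson intervals; the dashed line is the share over the whole table, 3.67%. Chromosome 9 (5.69%) and chromosome 4 (5.57%) are highest and chromosome 23 (0.847%) is lowest, while the intervals of most chromosomes include the dashed line.

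Chromosome 4 was uneven along its length. Its first 20 Mb held 19 of its 32 chosen lncRNAs among 103 listed (18.4%, 12.1% to 27.0%), while the rest of the chromosome held 13 among 471 (2.76%, 1.62% to 4.66%). The first 10 Mb alone held 11 of 45 (24.4%), the highest share of the 140 stretches of 10 Mb with at least 20 listed lncRNAs, whose median was 3.41%. This stretch was picked out after the values were seen. Of the 34 lncRNAs there that were not chosen, 22 had the higher mean in the cold, with a median log2 ratio of 0.59, against 30.7% and -0.67 for all 8056 remaining transcripts, and none was in the cold-lowered set. Transcripts left out by the limit on the average included MSTRG.21582.1, with 1580 FPKM in cold acclimated cells and 120 FPKM in control cells, and MSTRG.21602.1, with 447 FPKM in cold acclimated cells and 20.7 FPKM in control cells. Among the chosen lncRNAs of the stretch, MSTRG.21608.1 had 3.29 FPKM in cold acclimated cells and 0.0769 FPKM in control cells, and MSTRG.21746.1, chosen for naming after its values were seen, had 6.24 FPKM in cold acclimated cells and 1.36 FPKM in control cells. No gene was named at 9 of the 11.

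Chosen loci within 50 kb of each other formed 11 runs, with 23 of the 298 loci, and 5 of these runs lay on chromosome 4. That chromosome has the most listed lncRNAs (574), and in its run at MSTRG.23669 the transcript of one locus lies within the span of the other. Runs of other lncRNAs were not counted, so no clustering is read from these numbers. The run with the most loci held 3, MSTRG.21692, MSTRG.21694 and MSTRG.21701, within 5.83 kb at chr4:7540679-7546508. Its transcripts had 1.47, 4.33 and 1.1998 FPKM in cold acclimated cells, against 0.387, 0.732 and 0.0971 FPKM in control cells in the same order. No other lncRNA was listed within this run. On chromosome 14, MSTRG.6490.1 and MSTRG.6491.1 lay within 5.29 kb, and MSTRG.5977.1 and MSTRG.5978.1 within 6.20 kb, each a transcript of 1 exon.

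The lncRNAs listed nearest to the chosen ones were compared next. Within 10 kb, 58 of the 307 lncRNAs had such a neighbour that did not overlap them, and 11 of these neighbours were chosen lncRNAs themselves. Of the other 47 neighbours, 20 (42.6%) had the higher mean in the cold, with a median log2 ratio of -0.38. Counted in the same way, without chosen neighbours, 32.3% of 761 neighbours of the level window below 3-fold and 21.8% of 2510 neighbours of the remaining transcripts had the higher mean in the cold, with medians of -0.48 and -0.95. No interval was computed for these shares and the 47 neighbours are few, so no difference between the sets is read from them. The nearest listed lncRNA of another locus lay at a median distance of 54.3 kb from the chosen lncRNAs, against 31.1 kb for the remaining transcripts.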

How the data were processed

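Total RNA of ZF4 cells was depleted of ribosomal RNA and sequenced from 3 cold acclimated and 3 control cultures. The authors aligned reads to GRCz10, assembled and filtered lncRNAs, and deposited FPKM values as 1 mean per group; the submitters' processing notes name HISAT2 2.1.0 and StringTie 1.3.3. Positions were used as deposited, counted from 1. The table's columns of calls, FDR, p-values and log2 fold changes are the authors' own comparison and were not used. Known lncRNAs and coding genes were not analysed here.

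The ratio of the group means was computed after adding 0.1 FPKM, which understates changes of low transcripts. A test on replicates had no values to work on. The table does not give the depth of the libraries. Shares have 95% Wilson intervals, and medians have 95% intervals from binomial order statistics. The level window is the set that meets every condition but the ratio; the mirrored rule for cold-lowered lncRNAs asked for a control mean of at least 1 FPKM, a cold acclimated mean above 0, an average of at most 10 FPKM and a ratio of at most 1/3.

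Members and gene lists were chosen with earlier results of these data known. Lists match gene symbols by their letters, and symbols matched by letters only were removed after the matches were seen. The lncRNAs named are the 10 highest by ratio and by cold mean, those next to each threshold, the extremes of length and exon number, up to 4 per gene list, those with primers, those sharing a locus or gene, and the extremes of placement; others are marked as chosen after their values were seen. RefSeq (GRCz12tu) served for names only. Alternatives covered the pseudocount, thresholds, scaling, and transcripts per locus. Tools were Python 3.11.15, scipy 1.17.1, pandas 2.3.3, numpy 2.4.6 and, for plots, matplotlib 3.10.9.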

Additional observations from a re-analysis of the deposited data

How the results depend on the processing

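No paired analysis was possible because the deposited columns hold 1 mean per group and carry no replicate numbers, and for the same reason no culture could be left out in turn. Of 108 values recomputed under 16 alternatives for 7 results, 83 moved by less than their counting interval (for counts, by less than 1.5 times), and 25 moved further; a change of sign was not possible for these results. The number of lncRNAs (307) was 150 with 0.5 FPKM added and 62 with 1 FPKM added, 491 and 160 with a cold mean of at least 0.5 and 2 FPKM, 548 and 199 with a ratio of at least 2 and 4, and 752 with the cold means multiplied by 1.58 so that the median log2 ratio of the table was 0, which kept 301 of the 307. The median log2 ratio (2.32) was 1.95 and 1.90 with 0.5 and 1 FPKM added, 2.19 with a cold mean of at least 0.5 FPKM, 1.69 and 2.62 with a ratio of at least 2 and 4, and 2.46 with control means of 0 allowed. The single-exon share (61.6%) was 70.3% with a cold mean of at least 0.5 FPKM, 68.0% with 1 transcript per locus, 71.1% at loci with a single transcript and 74.9% without overlaps. The median length (482 nt) was 556 nt with 1 FPKM added, and 377 and 546.5 nt with a cold mean of at least 0.5 and 2 FPKM. The share at a named gene (41.4%) was 47.5% with a cold mean of at least 2 FPKM. The share on unplaced scaffolds (2.61%) was 0.0% with 1 FPKM added and 1.27% for transcripts of at least 300 nt. The share at loci with several transcripts (14.3%) was 22.6% with 1 FPKM added and 0.412% without overlaps. The alternatives without overlaps and of at least 300 nt, and those given for the length band, were chosen after the data were seen. The cause of these shifts was not tested. From group means alone, no error of a single transcript's difference could be computed.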

Other observations

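The following lncRNAs were chosen after their values were seen. Of 45 pairs of zebrafish paralogues named a and b that both carry a listed lncRNA, 6 had a strongly cold-raised lncRNA at either gene, and 3 had one at both: the genes of cacna1a, pcdh15 and lrp1b. Over all 3204 lncRNAs at named genes 3.96% were chosen. A gene can carry several listed lncRNAs, and no share for other pairs of genes was computed, so nothing is read from these counts. At pcdh15a the locus sum was lower in the cold, as given above. At lrp1bb, one of the LDL receptor-related genes, MSTRG.30636.1 had 2.04 FPKM in cold acclimated cells and 0.0613 FPKM in control cells, and at lrp1ba MSTRG.16642.1 had 1.63 FPKM in cold acclimated cells and 0.197 FPKM in control cells.

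At dclre1c, which encodes the Artemis nuclease, MSTRG.21768.1 had 8.41 FPKM in cold acclimated cells and 1.96 FPKM in control cells. At batf, which encodes a transcription factor of the AP-1 family, MSTRG.14720.1 had 6.82 FPKM in cold acclimated cells and 1.298 FPKM in control cells. At pnpla3, a lipase gene of lipid droplets, MSTRG.21739.1 had 2.15 FPKM in cold acclimated cells and 0.542 FPKM in control cells.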
